A study of Mus musculus with 8 samples.

Results

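A set of 10 genes of cytosolic and endosomal nucleic acid sensing were followed across 8 RNA-seq libraries of mouse brain neural progenitors: Tmem173 (STING), Mavs, Ddx58 (RIG-I), Ifih1 (MDA5), Dhx58 (LGP2), Tlr3, Irf3, Tbk1, Trex1 and Adar. They were taken by gene symbol, as rows that encode DNA and RNA sensors, their adaptors and kinases, and enzymes that limit sensing. Each of the 10 symbols matched 1 of the 20793 rows of the table, and all 10 reached 1 FPKM in at least 2 libraries, as did 11968 rows in all. The set was chosen by these symbols with the FPKM values of the 2 culture states in view, Tmem173 for its lower values in the differentiating libraries, so for these 10 genes the values of the differentiating and proliferating libraries are given as a description, without a test.

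The cells were progenitors of strain FvB/C57BL/6 that had been infected with lentivirus carrying hairpins and selected with puromycin for 3 days. The differentiating groups had spent 5 days in neurobasal medium with B27, and consisted of 1 library labelled FUBP1-targeted (named FUBP1-D), 1 labelled CIC-targeted (CIC-D) and 2 non-targeted (NT) libraries (7 and GFP-D). The proliferating groups grew in N2 medium with EGF and bFGF at 20 ng/ml each, and likewise held 1 FUBP1-targeted (FUBP1), 1 CIC-targeted (CIC) and 2 NT libraries (TRC and GFP). All cells, the NT controls included, had thus received a lentivirus. The labels do not state whether the NT libraries came from separate cultures. A p-value therefore reflects only how far these particular libraries scatter, and that scatter may be technical. Values are FPKM, a fragment count scaled to transcript length and to the size of the library, and the number of fragments behind them is unknown.

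Several libraries stood apart from their labels or from each other. Fubp1 was at 21.6 FPKM in FUBP1-D, against 24.8 in 7 and 25.4 in GFP-D, and at 34.8 in the library labelled FUBP1, against 50.2 in TRC and 12.4 in GFP, so the lowest level belonged to an NT library. Cic was at 25.6 FPKM in CIC-D, against 42.0 in 7 and 35.3 in GFP-D, and at 13.3 in CIC, against 39.4 in TRC and 33.8 in GFP. Progenitor markers were abundant in both states, with Vim reaching 3842 FPKM. The summed level of 8 markers of dividing cells ran from 63.0 to 106.5 FPKM in the differentiating libraries and from 484 to 1036 in the proliferating ones, and that of 8 astrocyte markers from 676 to 1167 and from 284 to 366. Slc1a3 was the highest of the astrocyte markers, and Aqp4, Slc1a2 and Slc1a3 were higher in every differentiating library. Gfap, Aldh1l1, S100b, Aldoc and Gja1 overlapped between the states. S100b averaged 1.04 FPKM in the differentiating and 2.77 FPKM in the proliferating libraries. Microglia, the immune cells of the brain, are rich in nucleic acid sensors, and 8 of their 9 markers stayed under 1 FPKM in every library. C1qa and Tyrobp were listed at 0 throughout, and the ninth marker, P2ry12, reached 1.62 FPKM. All 6 endothelial markers stayed under 1 FPKM. Of 5 mesenchymal markers 3 did so, while Pdgfrb was at 5.59 FPKM in GFP-D, 0.407 in GFP and listed at 0 elsewhere, and Dcn reached 1.30 FPKM in GFP. Oligodendrocyte lineage genes were present, with Olig1 up to 1024 FPKM, and Olig2 was at 88.0 to 180 FPKM in the differentiating and 281 to 397 FPKM in the proliferating libraries.

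Foreign or misplaced nucleic acid is detected in the cytosol by a few families of sensors. Double-stranded DNA activates cGAS, whose cyclic dinucleotide product binds STING on the endoplasmic reticulum. Double-stranded or unprocessed RNA binds RIG-I or MDA5, which signal through MAVS on mitochondria, while TLR3 reads double-stranded RNA in endosomes. These routes converge on the kinase TBK1 and the transcription factor IRF3, which switches on interferon genes. TREX1 degrades cytosolic DNA and ADAR edits double-stranded RNA, and both keep the cell's own nucleic acids from being sensed. Several of the sensors are themselves induced by interferon.

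Interferon-induced genes are typically switched on through interferon-stimulated response elements, repeats of GAAA separated by a short spacer, and the promoters of Ifih1 and Ddx58 are shown because they were the member promoters in which such a repeat was found. Promoter windows from RefSeq (GRCm38.p6, 250 bases before to 50 after the transcript start) were at hand for 8 of the 10 genes, in 11 windows. The letters GAAANNGAAA were searched on both strands. The 10 bases of the match are in capitals, on chr2:62646206-62646505 (minus strand) for Ifih1 and on chr4:40239776-40240075 (minus strand) for Ddx58, 5′ to 3′ along the gene.
Ifih1: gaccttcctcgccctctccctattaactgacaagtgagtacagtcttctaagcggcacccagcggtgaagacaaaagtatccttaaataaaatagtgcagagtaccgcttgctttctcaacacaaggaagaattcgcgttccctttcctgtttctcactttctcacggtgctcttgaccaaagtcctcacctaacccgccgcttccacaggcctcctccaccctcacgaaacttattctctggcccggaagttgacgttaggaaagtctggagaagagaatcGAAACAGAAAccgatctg
Ddx58: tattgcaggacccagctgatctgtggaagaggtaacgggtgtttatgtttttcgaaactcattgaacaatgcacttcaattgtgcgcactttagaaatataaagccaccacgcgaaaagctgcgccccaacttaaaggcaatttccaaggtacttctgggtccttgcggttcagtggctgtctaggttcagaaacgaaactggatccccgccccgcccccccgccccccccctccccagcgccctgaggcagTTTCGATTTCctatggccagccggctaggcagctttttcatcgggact
The match starts at base 33 of the transcript in Ifih1 and at base 3 in Ddx58, where it lies on the opposite strand. Of all 32851 windows of this length, 3.44% held the letters. Among the interferon response genes described below, 11 of the 19 with a window held them. A match of letters is not evidence of binding, and the windows of Mavs, Tlr3, Irf3, Tbk1, Trex1 and Adar did not hold these letters.

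Tmem173 encodes STING, the adaptor of the DNA-sensing route (chromosome 18, 35893331 to 35900208, mm9). It was at 0.853 FPKM in FUBP1-D, 0.244 in CIC-D, 0.318 in 7 and 0.807 in GFP-D, against 49.3 in FUBP1, 71.8 in CIC, 21.7 in TRC and 56.9 in GFP. All 4 differentiating libraries were under 1 FPKM, and all 4 proliferating libraries were above 20 FPKM. The means were 0.555 ± 0.319 FPKM in the differentiating and 49.9 ± 21.0 FPKM in the proliferating libraries (SD, n = 4 each, over 3 arms), a level 89.9-fold lower in the differentiating libraries by the ratio of means. The fitted change, from an additive limma model of state and hairpin arm on log2(FPKM + 1), was -4.93 (SE 0.36). It was -6.27 with a pseudocount of 0.1 and -3.21 with one of 5, since the differentiating values lie below the pseudocount. In bulk RNA, fewer cells that carry a transcript and less transcript per cell cannot be told apart. The markers of dividing cells moved between the states in the same direction, and their part in the difference was not tested. Among the proliferating libraries the marker sum was 1036 FPKM in FUBP1, 484 in CIC, 1023 in TRC and 515 in GFP. The kinetochore gene Ndc80, named below for its profile near that of Tmem173, was at 25.7, 48.9, 24.7 and 12.04 FPKM in the same order.

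**Figure D1:**
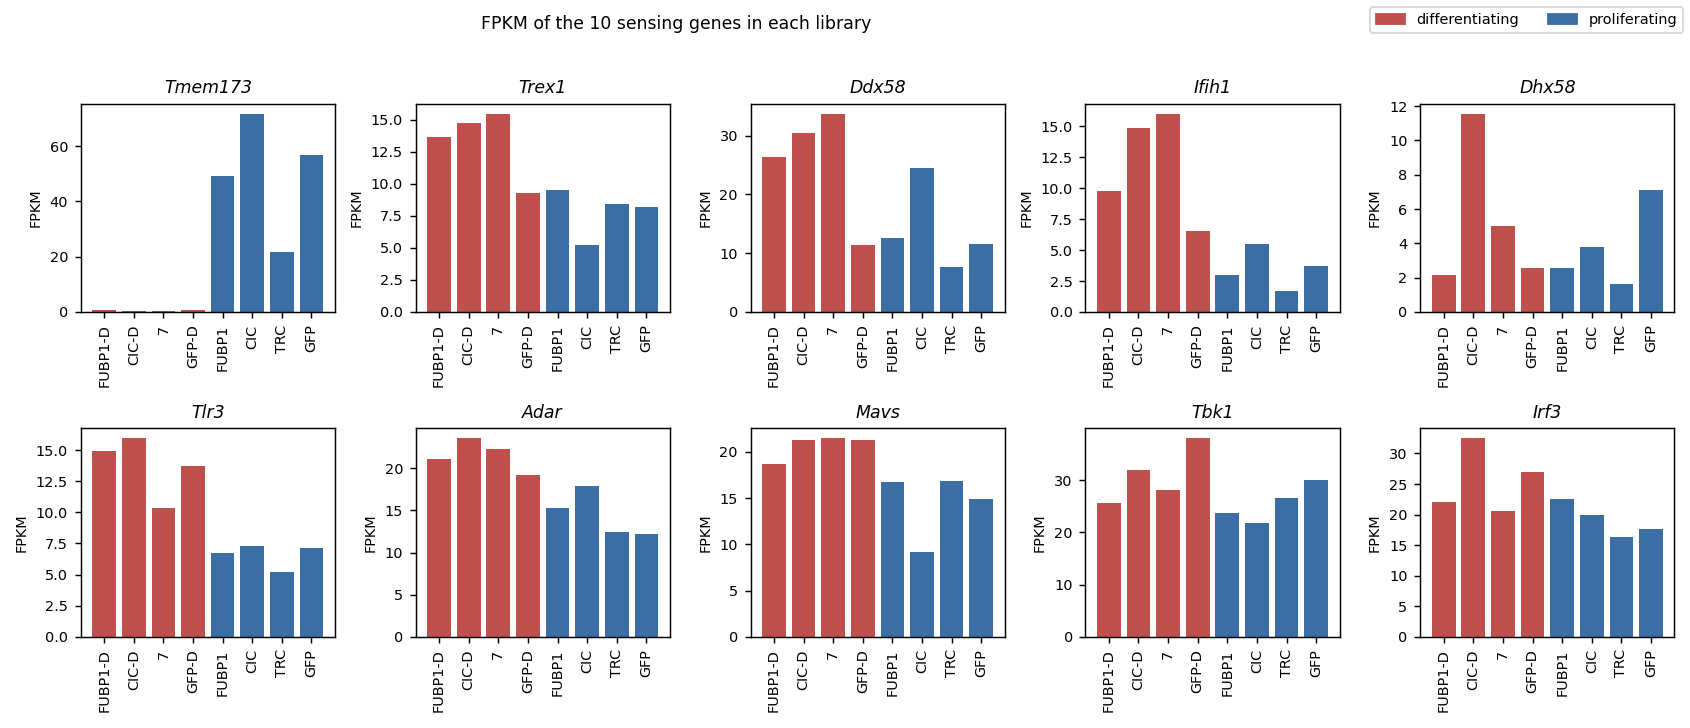
FPKM of the 10 genes in each of the 8 libraries (bars, 1 value per library, each axis from 0), with the differentiating libraries left and the proliferating ones right. Tmem173 stood at 0.244 to 0.853 FPKM in the differentiating and 21.7 to 71.8 FPKM in the proliferating libraries, whereas Ddx58, Dhx58, Irf3, Tbk1 and Trex1 overlapped between the states.

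Set against the other 9 genes, Tmem173 ranked at opposite ends in the differentiating and the proliferating libraries. It was the lowest of the 10 in all 4 differentiating libraries. In the proliferating libraries it was the highest of the 10 in FUBP1, CIC and GFP and the second, behind Tbk1 at 26.6 FPKM, in TRC. It made up 0.124% to 0.549% of the summed FPKM of the 10 genes in the differentiating libraries, against 18.3% to 38.4% in the proliferating ones. Its ratio to the median of the other 9 was 0.0456 in FUBP1-D, 0.0115 in CIC-D, 0.0154 in 7 and 0.0586 in GFP-D, against 3.92 in FUBP1, 7.82 in CIC, 2.57 in TRC and 4.91 in GFP. The other 9 genes together summed to 149 to 197 FPKM in the differentiating and 97.0 to 115 FPKM in the proliferating libraries. The fitted change of Tmem173 lay 5.49 log2 units below the median change of the other 9.

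**Figure D2:**
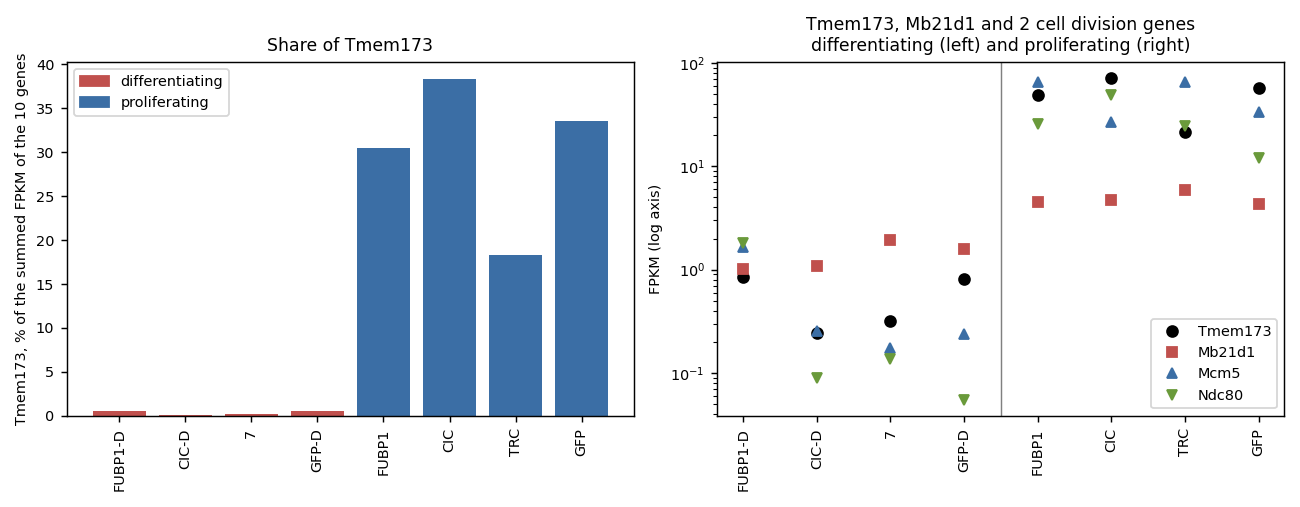
Left, Tmem173 as a percentage of the summed FPKM of the 10 genes in each library. Right, FPKM on a log axis of Tmem173, Mb21d1, Mcm5 and Ndc80 in the differentiating (left of the line) and proliferating libraries; all 4 genes were lower in every differentiating library than in any proliferating one.

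The enzyme upstream of STING was also lower on differentiation. Mb21d1, which encodes cGAS, was at 1.00 FPKM in FUBP1-D, 1.08 in CIC-D, 1.95 in 7 and 1.57 in GFP-D, against 4.48 in FUBP1, 4.72 in CIC, 5.89 in TRC and 4.33 in GFP. The groups did not overlap, and the fitted change was -1.30 (SE 0.20, limma adjusted p = 0.0033). Over the alternatives, other pseudocounts included, the change of Mb21d1 ran from -1.76 to -0.62. Trex1, the DNA exonuclease, went the other way on average. It was at 13.7 FPKM in FUBP1-D, 14.8 in CIC-D, 15.5 in 7 and 9.32 in GFP-D, against 9.51 in FUBP1, 5.19 in CIC, 8.42 in TRC and 8.20 in GFP. GFP-D lay within the proliferating range, and the fitted change was 0.70 (SE 0.24).

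The 5 genes whose profile over the 8 libraries was nearest to that of Tmem173 were Ndc80, a kinetochore protein, Chrm3, a muscarinic acetylcholine receptor, Depdc1a, Prc1, a protein of the dividing midzone, and Mcm5, a subunit of the replicative helicase. Nearness was the root mean square difference of log2(FPKM + 1), each gene centred on its mean over the 8 libraries, among genes that reached 5 FPKM. It ran from 0.78 for Ndc80 to 0.84 for Mcm5. These profiles share the gap between the states, and no other member came nearer than 2.66 (Tbk1). The measure is not scaled to the size of a gene's change, so the gap for which Tmem173 was singled out largely sets these distances. A gene that hardly changed also lies far from Tmem173 by it, and the distances of the members say nothing on shared regulation. Ndc80 was at 0.055 to 1.83 FPKM in the differentiating and 12.04 to 48.9 FPKM in the proliferating libraries. Mcm5 was at 0.175 to 1.64 and 26.9 to 65.9 FPKM.

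Of the RNA sensors, Ifih1 and Tlr3 lay higher in every differentiating library than in any proliferating one, and Ddx58 and Dhx58 overlapped between the states. Ifih1 encodes MDA5, which binds long double-stranded RNA (chromosome 2, 62433849 to 62484312). It was at 9.79 FPKM in FUBP1-D, 14.9 in CIC-D, 16.0 in 7 and 6.56 in GFP-D, against 2.97 in FUBP1, 5.51 in CIC, 1.71 in TRC and 3.71 in GFP. The groups did not overlap, although GFP-D and CIC came close to each other, and the fitted change was 1.52 (SE 0.31), or 0.97 with a pseudocount of 5. Ddx58 encodes RIG-I, which binds RNA ends (chromosome 4, 40150809 to 40186858). It was at 26.4 FPKM in FUBP1-D, 30.5 in CIC-D, 33.8 in 7 and 11.5 in GFP-D, against 12.6 in FUBP1, 24.4 in CIC, 7.68 in TRC and 11.6 in GFP. Here the states overlapped, since GFP-D was no higher than GFP and CIC stood near the 3 higher differentiating libraries. The fitted change was 0.83 (SE 0.34), and 0.50 without 7.

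Dhx58 encodes LGP2, a relative of both that lacks their signalling domains (chromosome 11, 100556197 to 100565585). It was at 2.165 FPKM in FUBP1-D, 11.6 in CIC-D, 5.00 in 7 and 2.56 in GFP-D, against 2.56 in FUBP1, 3.81 in CIC, 1.61 in TRC and 7.10 in GFP. The highest proliferating library, GFP, exceeded 3 of the differentiating ones. The fitted change was 0.31 (SE 0.43), and its sign was negative with quantile normalization (-0.010) and without CIC-D or without CIC (-0.051 in each case). It was 0.041 without TRC, 0.47 without FUBP1-D or FUBP1, 0.52 without GFP-D and 0.70 without GFP. Tlr3, the endosomal sensor of double-stranded RNA (chromosome 8, 46481018 to 46495893), was at 15.0 FPKM in FUBP1-D, 16.0 in CIC-D, 10.4 in 7 and 13.8 in GFP-D, against 6.76 in FUBP1, 7.29 in CIC, 5.21 in TRC and 7.16 in GFP. The groups did not overlap, with GFP-D well inside the differentiating range for this sensor, and the fitted change was 0.95 (SE 0.19). Adar, the RNA-editing enzyme (chromosome 3, 89518943 to 89557377), was at 21.1 FPKM in FUBP1-D, 23.6 in CIC-D, 22.3 in 7 and 19.2 in GFP-D, against 15.3 in FUBP1, 17.9 in CIC, 12.5 in TRC and 12.2 in GFP. The groups did not overlap, by a narrow margin between GFP-D and CIC, and the fitted change was 0.55 (SE 0.16).

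The shared adaptor, kinase and transcription factor varied less between libraries than Ifih1 or Tmem173, and of them only Mavs did not overlap between the states. Mavs (chromosome 2, 131059798 to 131073760) was at 18.7 to 21.5 FPKM in the differentiating and 9.17 to 16.9 FPKM in the proliferating libraries, and CIC was the lowest of all 8. Its fitted change was 0.53 (SE 0.20), and 0.32 without CIC-D or CIC. Tbk1, the kinase downstream of STING and MAVS (chromosome 10, 120983512 to 121023850), was at 25.6 to 38.0 FPKM and 21.8 to 30.1 FPKM. Irf3, the factor it phosphorylates (chromosome 7, 52253017 to 52258218), was at 20.6 to 32.5 FPKM and 16.4 to 22.6 FPKM. Both overlapped between the states, with fitted changes of 0.26 (SE 0.17) for Tbk1, or 0.17 without CIC-D or CIC, and 0.39 (SE 0.19) for Irf3. The highest library exceeded the lowest by 1.74-fold for Tbk1, 1.93-fold for Adar, 1.98-fold for Irf3 and 2.34-fold for Mavs, against 9.39-fold for Ifih1 and 294-fold for Tmem173.

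Over the 10 genes, 4 (Mavs, Ifih1, Tlr3 and Adar) were higher in every differentiating library than in any proliferating one, as were 20.1% of all kept genes, and Tmem173 was lower in every one, as were 17.8%. In either direction the states did not overlap in 38% of kept genes. Of the fitted changes 9 of 10 were positive, with a median of 0.54 over the 10 genes beside 0.09 over all kept genes. Quantile normalization brought the median of all genes to -0.0022 and the median of ratios brought it to 0.026, and under quantile normalization 8 of the 10 changes were positive.

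**Figure D3:**
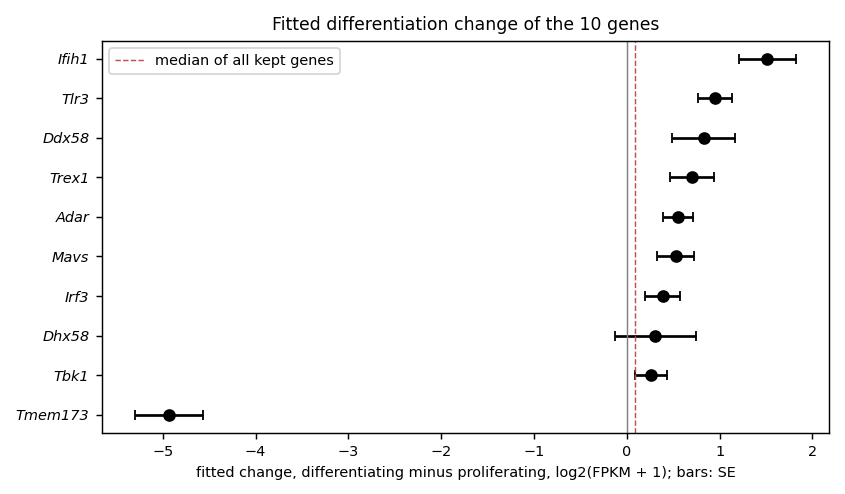
Fitted change of each gene, differentiating minus proliferating, on the log2(FPKM + 1) scale (points, with SE as bars, additive model over 8 libraries). Tmem173 lies at -4.93 and the others between 0.26 and 1.52; the dashed line marks the median of all 11968 kept genes at 0.09.

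Wider parts of the pathway were described with 5 further lists, in which 99 genes were kept. Of these, limma called 38, 30 higher and 8 lower in the differentiating libraries, while 38.8% of all kept genes were called (21.2% higher and 17.7% lower). The number called higher was 14 without FUBP1-D or FUBP1, 15 without CIC-D or CIC and 19 without 7, and the number called lower was 5 without FUBP1-D or FUBP1. Over all genes, 2477 were called without FUBP1-D, 2485 without FUBP1, 3239 without CIC-D and 3249 without CIC, against 4647 with every library. Leaving out 7 gave 3660, GFP-D 3518, TRC 3512 and GFP 4857.

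Among 23 kept genes of the other sensors (30 listed), 5 were called higher and 6 lower (21.2% and 17.7% of all kept genes). The median change was -0.18. Ddx60, a helicase related to the RIG-I family, averaged 9.32 ± 4.99 FPKM in differentiating and 0.835 ± 0.313 FPKM in proliferating libraries (SD, n = 4 each), and its change of 2.34 (SE 0.43, limma adjusted p = 0.0060) was the largest increase. Nlrx1, a NOD-like protein of mitochondria, and Oas1b, of the oligoadenylate synthetase family, rose by 1.25 and 1.18 on the log2 scale. Oas1b was no longer called without CIC-D (adjusted p = 0.056) or CIC (0.055). Besides Mb21d1, the called decreases included the RNA helicase Dhx9, at 41.0 ± 15.2 against 106 ± 24.4 FPKM, and the chromatin protein Hmgb1, at 139 ± 25.2 against 360 ± 160 FPKM. The called increases numbered 2 without CIC-D or CIC and 3 without FUBP1-D, FUBP1 or 7, and the called decreases numbered 3 without FUBP1-D or FUBP1. Tlr7, Tlr8, Tlr9, Tlr13 and Aim2, receptors best known from immune cells, stayed under 1 FPKM everywhere.

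Of 27 kept adaptors, kinases, ubiquitin ligases and transcription factors, 9 were called higher and 1 lower (21.2% and 17.7% of all kept genes). Their median change was 0.40. Irf1, an interferon regulatory factor, averaged 67.2 ± 33.8 FPKM in differentiating and 11.6 ± 2.47 FPKM in proliferating libraries (SD, n = 4 each), a change of 2.31 (SE 0.39, limma adjusted p = 0.0043). Optn, an autophagy receptor that binds TBK1, and Ikbke, the closest relative of Tbk1, rose by 1.35 and 1.22. Ikbke remained a low transcript, at 1.503 to 2.56 FPKM in differentiating and 0.13 to 0.28 FPKM in proliferating libraries. Fadd, a death domain adaptor, averaged 2.86 ± 1.08 against 8.81 ± 1.41 FPKM, a change of -1.38 (SE 0.23, adjusted p = 0.0042). The increases called numbered 4 without FUBP1-D or FUBP1 and 5 without CIC-D or CIC.

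Among 11 kept nucleases and limiters, 2 were called higher and 1 lower (21.2% and 17.7% of all kept genes), with a median of 0.11. The NF-kappaB inhibitors Nfkbia, at 116 ± 24.5 against 28.5 ± 13.2 FPKM, and Tnfaip3, at 7.38 ± 2.45 against 1.997 ± 0.349 FPKM (SD, n = 4 each), rose by 2.08 and 1.45 on the log2 scale. Rnaseh2a, the catalytic subunit of ribonuclease H2, averaged 9.74 ± 1.28 against 20.1 ± 3.77 FPKM (change -0.96, SE 0.16, limma adjusted p = 0.0042). The number called lower was 2 without CIC-D, without CIC or without GFP.

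Interferon transcripts themselves were at or near 0. The 10 interferon genes of the list (Ifnb1, 6 Ifna genes, Ifnk, Ifne and Ifng) stayed under 1 FPKM in every library, and Ifnb1 was listed at 0 in all libraries other than CIC, where it was at 0.05 FPKM. The median change of the 12 kept receptors and JAK-STAT genes was 0.65. Of these genes, 5 were called higher and none lower (21.2% and 17.7% of all kept genes). They included the interferon gamma receptor chain Ifngr1, at 26.8 ± 5.26 against 10.5 ± 4.27 FPKM, and the transcription factor Stat2, at 29.5 ± 10.6 against 12.97 ± 3.44 FPKM (SD, n = 4 each). The kinase gene Tyk2 passed narrowly (change 0.86, limma adjusted p = 0.046) and did not pass without CIC-D (0.135), CIC (0.131), FUBP1-D (0.106), FUBP1 (0.105), 7 (0.101) or TRC (0.095). The number called was 2 without FUBP1-D, FUBP1, 7 or TRC and 3 without CIC-D, CIC or GFP-D.

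Of 26 genes of the interferon response, 9 were called higher and none lower (21.2% and 17.7% of all kept genes). All 26 estimates were positive, with a median of 0.99 beside 0.09 over all kept genes. Ifit3, an antiviral gene of the IFIT family, averaged 124 ± 134 FPKM in differentiating and 4.46 ± 2.86 FPKM in proliferating libraries (SD, n = 4 each). Gbp2, a guanylate-binding protein, averaged 119 ± 85.7 against 11.1 ± 7.56 FPKM, and Psmb8, an immunoproteasome subunit, 40.6 ± 15.7 against 12.4 ± 11.98 FPKM. The number called was 14 without GFP-D, 5 without 7 or TRC and 3 without FUBP1-D, FUBP1, CIC-D or CIC. Over all kept genes the calls fell from 4647 to 3518 without GFP-D and to between 2477 and 3660 without the others named. Ifit3 did not pass without CIC-D or CIC (limma adjusted p = 0.051 in both), and Psmb8 did not without CIC-D (0.104), CIC (0.104), FUBP1-D (0.071), FUBP1 (0.070) or 7 (0.074).

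The interferon response list ordered the libraries much as Ddx58 and Ifih1 did. Its mean log2(FPKM + 1) was 4.62 in FUBP1-D, 5.55 in CIC-D, 5.43 in 7 and 3.41 in GFP-D, against 3.49 in FUBP1, 4.41 in CIC, 2.52 in TRC and 3.81 in GFP. CIC-D, 7 and FUBP1-D held the 3 highest levels of the list, of Ddx58 and of Ifih1, and TRC held the lowest of each. CIC was the highest proliferating library and GFP-D the lowest differentiating library in all 3. Among the differentiating libraries, Trex1 (9.32 FPKM) and Adar (19.2 FPKM) were also lowest in GFP-D, whereas Dhx58, Tlr3, Mavs, Tbk1, Irf3 and Tmem173 were not. The 5 genes nearest to Ifih1 in profile were Herc6, a ubiquitin-like ligase for ISG15, AI464131, Ifit2, Dtx3l, a ubiquitin ligase, and Thra, a thyroid hormone receptor, at root mean square differences of 0.18 to 0.25. Among the members Ddx58 was the nearest to Ifih1, at 0.40, in place 95 of the genes compared. Tmem173 was the farthest, at 3.27, a distance largely set by its gap between the states.

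**Figure D4:**
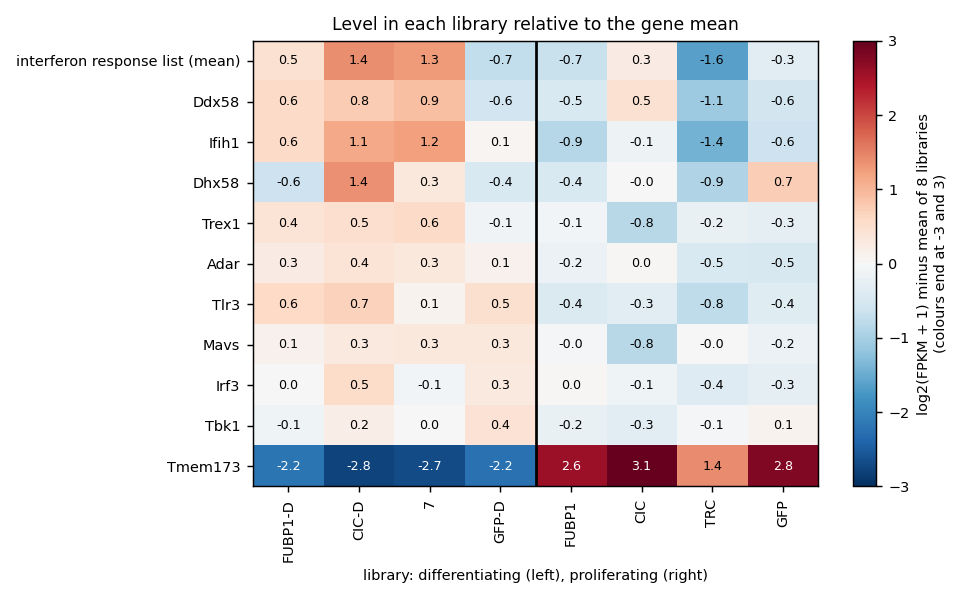
Level of each gene, and mean level of the 26 interferon response genes, in each library as log2(FPKM + 1) minus the mean of the 8 libraries, with differentiating libraries left of the line. Ddx58 and Ifih1 share with the interferon response list the high values of CIC-D and 7 and the low value of TRC, whereas Tmem173 is negative in all 4 differentiating and positive in all 4 proliferating libraries.

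The hairpin comparisons, which the choice of these genes did not use, called none of the 10. For the FUBP1 label against NT, limma called 0 of 10 (0% of all kept genes), with 0 of 10 at an unadjusted p under 0.05 (2.14% of all kept genes). Estimates ran from -0.46 (Dhx58) to 0.39 (Ddx58), and that of Tmem173 was 0.37 (SE 0.45, adjusted p = 0.999), with 0.022 without TRC and 0.56 without GFP. For the CIC label against NT, limma likewise called 0 of 10 (0.109% of all kept genes), with 0 of 10 at an unadjusted p under 0.05 (11.4% of all kept genes). The estimate of largest size was that of Ddx58, 0.94 (SE 0.42, adjusted p = 0.449), from 30.5 FPKM in CIC-D against 33.8 in 7 and 11.5 in GFP-D and 24.4 in CIC against 7.68 in TRC and 11.6 in GFP. That of Tmem173 was 0.35 (SE 0.45, adjusted p = 0.788), and over the alternatives it ran from 0.0010 (without TRC) to 0.54 (without GFP).

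Between the libraries labelled FUBP1 and those labelled CIC, 0 of 10 were called (0.0501% of all kept genes) and 0 of 10 lay at an unadjusted p under 0.05 (11.2% of all kept genes). Dhx58 had the largest estimate, -1.21 (SE 0.62, limma adjusted p = 0.494), from 2.165 FPKM in FUBP1-D against 11.6 in CIC-D and 2.56 in FUBP1 against 3.81 in CIC. The change of either hairpin effect between the states, tested on 6 group means with 2 residual degrees of freedom, gave 0 of 10 for each hairpin (0% of all kept genes). At an unadjusted p under 0.05 it also gave 0 of 10 for each, beside 0.827% of all kept genes for the FUBP1 label and 4.28% for the CIC label. For Tmem173 the FUBP1 effect differed between the states by -0.21 (SE 0.89, limma adjusted p = 1.00). The CIC effect on Tmem173 differed by -1.32 (SE 0.89, limma adjusted p = 0.998).

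Each single library was also set, without a test, against both NT libraries of its state. CIC lay above both in 6 of the 10 genes and below both in 3, as it did in 31.4% and 39.9% of all kept genes. The 3 were Mavs, with 9.17 against 16.9 and 14.9 FPKM, Trex1, with 5.19 against 8.42 and 8.20 FPKM, and Tbk1, with 21.8 against 26.6 and 30.1 FPKM. CIC-D exceeded both NT libraries in 4 genes and was under both in 2 (30.8% and 34.1% of all kept genes). FUBP1-D lay above both in 2 and below both in 3 (34.9% and 28.3%), and FUBP1 above both in 4 and below both in 1 (26.7% and 27.7%).

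By more than 1 log2 unit, CIC stood above both NT libraries in Ddx58 (by 1.02 over the higher one), as in 3.63% of kept genes, and CIC-D in Dhx58 (by 1.07), as in 1.07% of kept genes. No member stood above both by that margin in FUBP1-D (1.24% of kept genes) or FUBP1 (0.994%). None stood below both by it in FUBP1-D (0.76%), CIC-D (1.76%), FUBP1 (0.125%) or CIC (5.65%).

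The NT libraries named GFP were compared with the other NT libraries, in a model that gave them an arm of their own. Limma called 0 of 10 members (0.476% of all kept genes), with 0 of 10 at an unadjusted p under 0.05 (11.7% of all kept genes). Tmem173 was at 0.807 FPKM in GFP-D against 0.318 in 7, and at 56.9 FPKM in GFP against 21.7 in TRC, higher in both pairs, by 2.54-fold and 2.63-fold. Its estimate was 0.90 (SE 0.41, limma adjusted p = 0.465), with 0.35 without TRC and 1.46 without 7. Ddx58 and Ifih1 crossed over, with GFP-D below 7 (11.5 against 33.8 and 6.56 against 16.0 FPKM) and GFP above TRC (11.6 against 7.68 and 3.71 against 1.71 FPKM).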

How the data were processed

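RNA of 8 libraries was sequenced by the authors from TruSeq libraries of total RNA, per the labels' protocols. The deposited table holds 1 FPKM value per gene and library. The build was mm9, and TopHat2 2.0.11, Cufflinks 2.1.1, cutadapt and bcl2fastq 2.17 are named, per the submitters' processing notes. Settings, annotation and strand use: not given in the sources used here. Overlapping genes and close relatives are therefore uncertain. The absolute depth is unknown, and no count test was possible.

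FPKM values were used as deposited, as log2(FPKM + 1), which understates changes of low genes. A row was kept if 2 libraries or more reached 1 FPKM. The two-sided moderated test of limma 3.58.1 (R 4.3.3, eBayes with a mean trend) was applied to every kept row, adjusted after Benjamini and Hochberg with a threshold of 0.05, and checked on simulated data. The additive model of state and arm left 4 residual degrees of freedom, the model with the GFP-named libraries as an arm 3, and group means 2, from the NT pairs alone.

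The members and the wider lists were chosen with earlier results of these data known. All members were named, and of each wider list the 3 called genes of largest change in each direction. Sting1, a newer symbol of Tmem173, was on a list and matched no row. Alternatives were other pseudocounts (0.1 and 5), no filter, 2 rescalings, other models and each library left out.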

Additional observations from a re-analysis of the deposited data

Results flagged for a closer look

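In 20 sets of 4 libraries (10 genes in each state), 1 value lay apart from the rest. Mavs stood at 18.7 FPKM in FUBP1-D, below the other differentiating libraries, which lay between 21.2 and 21.5 FPKM. Chance alone gives about 1 such value in 20 sets.

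For 1 of 20 pairs examined (10 genes, 2 labels), the library of a label lay on opposite sides of both NT libraries in the 2 states. It was Tmem173 with the CIC label, and 16.5% of all kept genes did so with that label. CIC-D, at 0.244 FPKM, lay below both NT libraries (0.318 and 0.807 FPKM), and CIC, at 71.8 FPKM, lay above both (21.7 and 56.9 FPKM). The tested difference of the CIC effect between the states was -1.32 (SE 0.89, limma adjusted p = 0.998).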

How the results depend on the processing

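The Tmem173 change on differentiation stayed between -5.28 and -4.62 when each library was left out, and its distance from the median change of the other 9 genes between -5.86 and -5.11. With pseudocounts of 0.1 and 5 the change was -6.27 and -3.21 and the distance -6.85 and -3.66, since values under 1 FPKM depend on the pseudocount. The change of Dhx58 reversed to -0.010 with quantile normalization and to -0.051 without CIC-D or without CIC (range with a library left out, -0.051 to 0.70), and the cause was not tested. Of the wider lists, 14 to 35 genes were called higher and 5 to 10 lower with a library left out, against 30 and 8, and the numbers called higher were 18 with group means and 15 without both GFP and FUBP1, an alternative chosen after seeing the data. The 19 named genes of these lists kept their direction in all 304 values recomputed and missed the threshold in 25. The count of members called was 0 in every alternative run for each of the 6 comparisons of hairpins and NT libraries. The labels number no replicates. The nearest to a paired fit was a block with the GFP-named libraries as an arm of their own, which called 5119 genes on differentiation against 4647. It left TRC and 7 together as the other NT arm, although no name or label pairs these 2 libraries. In this balanced design such a block can change the SE of a differentiation change but not its estimate. Unknown depth limits what can be said below about 1 FPKM, where all differentiating Tmem173 values lie. Each hairpin has 1 library per state.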
